A study of Saccharomyces cerevisiae with 6 samples.

Results

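The heat shock chaperones of the yeast cytosol and mitochondria were examined in wild-type Saccharomyces cerevisiae exposed to OGT2468. The set holds 33 genes, chosen by name from a list of chaperones controlled by the heat shock factor Hsf1 and of constitutively made chaperones. The rule uses gene names alone, though the list was drawn up with earlier results of these data known. All 33 had a probe set annotated to 1 S. cerevisiae gene, out of 5449 genes with such a probe set on the array, and 27 of them act in the cytosol or nucleus and 6 in mitochondria. Where a gene had more than 1 probe set, which was so only for SSB1, the brightest over the 6 arrays was used.

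Total RNA was taken from 3 cultures grown to mid-log phase and kept for 3 h in 0.1 µM OGT2468, a compound that the labels give only under this code name. It was also taken from 3 control cultures kept for 3 h in DMSO at 0.1% without the compound. No DMSO percentage was recorded here for the OGT2468 cultures. Both groups are described as wild type, with no strain, mating type or culture medium given in the labels. Each of the 6 biological samples was hybridised to its own Affymetrix oligonucleotide array.

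Chaperones bind unfolded or newly made proteins and keep them from aggregating. In yeast, Hsf1 is held in check by Hsp70 in unstressed cells, and when misfolded proteins draw Hsp70 away it activates genes of Hsp70, Hsp90, their helpers and the disaggregase Hsp104. Several of these chaperones also have a constitutive copy that is made at high level in growing cells, such as HSC82 for Hsp90 and SSA2 for Hsp70. Folding in the endoplasmic reticulum (ER) is served by a separate set of chaperones, which the sensor Ire1 and the transcription factor Hac1 control.

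Levels are given as log2 of the quantile normalized intensity with 16 added, and a change is the mean of the OGT2468 arrays minus the mean of the DMSO arrays on that scale. The median deposited intensity of S. cerevisiae probe sets lay between 691 and 842 on the OGT2468 arrays and between 786 and 1150 on the DMSO arrays, and 95.6% to 97.1% of them were above background on any array. All 33 members were above background on all 6 arrays, with mean deposited intensities from 295.6 to 14026.7. RNA integrity, read from the log2 ratio of 3' to 5' control probe sets, overlapped between the groups for ACT1 (p = 0.3), SPT15 (p = 0.8) and SRB4 (p = 0.9), each in an exact permutation test that is two-sided and cannot give a p below 0.1. Of the mating type markers, all 4 of the alpha type were above background on all 6 arrays, as were STE2, STE6 and MFA2 of the 7 a type markers, with MFA1 above it on 5 arrays, BAR1 on 4 and AGA2 and ASG7 on 2. STE2 (-1.09), MFA2 (-1.06) and STE6 (-0.61) fell in OGT2468 (limma adjusted p under the threshold). So did MF(ALPHA)2 of the alpha type (-0.35, limma adjusted p = 0.0494). All 4 alpha markers and all 7 a markers had a change below 0. In DMSO the mean levels ran from 12.61 to 13.44 for the alpha markers and from 5.19 to 8.39 for the a markers. The part of these markers in the results below was not tested.

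None of the 33 chaperone genes passed the test after 3 h in OGT2468 (limma, adjusted p from 0.106 to 0.975), and no change was larger than 0.30 on the log2 scale in either direction. The extremes were HSF1 at 0.30, or 1.23-fold, and BTN2 at -0.27, or 0.83-fold, and the value of BTN2 depended on single arrays. The change was under 0.2 in size for 28 of the 33 genes and under 0.1 for 21, with 13 changes above 0 and 20 below. The median change was -0.03, beside -0.02 over all named genes. Over all 8968 probe sets tested 2.59% passed, and 208 of 5449 named genes did. A count of 0 among 33 genes does not stand apart from this background. The 8968 include unnamed probe sets, most of them not above background on at least 3 arrays. The 95% interval of the change lay within 0.5 on either side of 0 for 31 members. The exceptions were HSP42 and BTN2, whose replicate cultures differed widely. At an unadjusted p under 0.05 there were 3 members, HSF1, SSE2 and SSA4, beside 16.4% of all tested probe sets and 1145 of 5449 named genes.

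**Figure D1:**
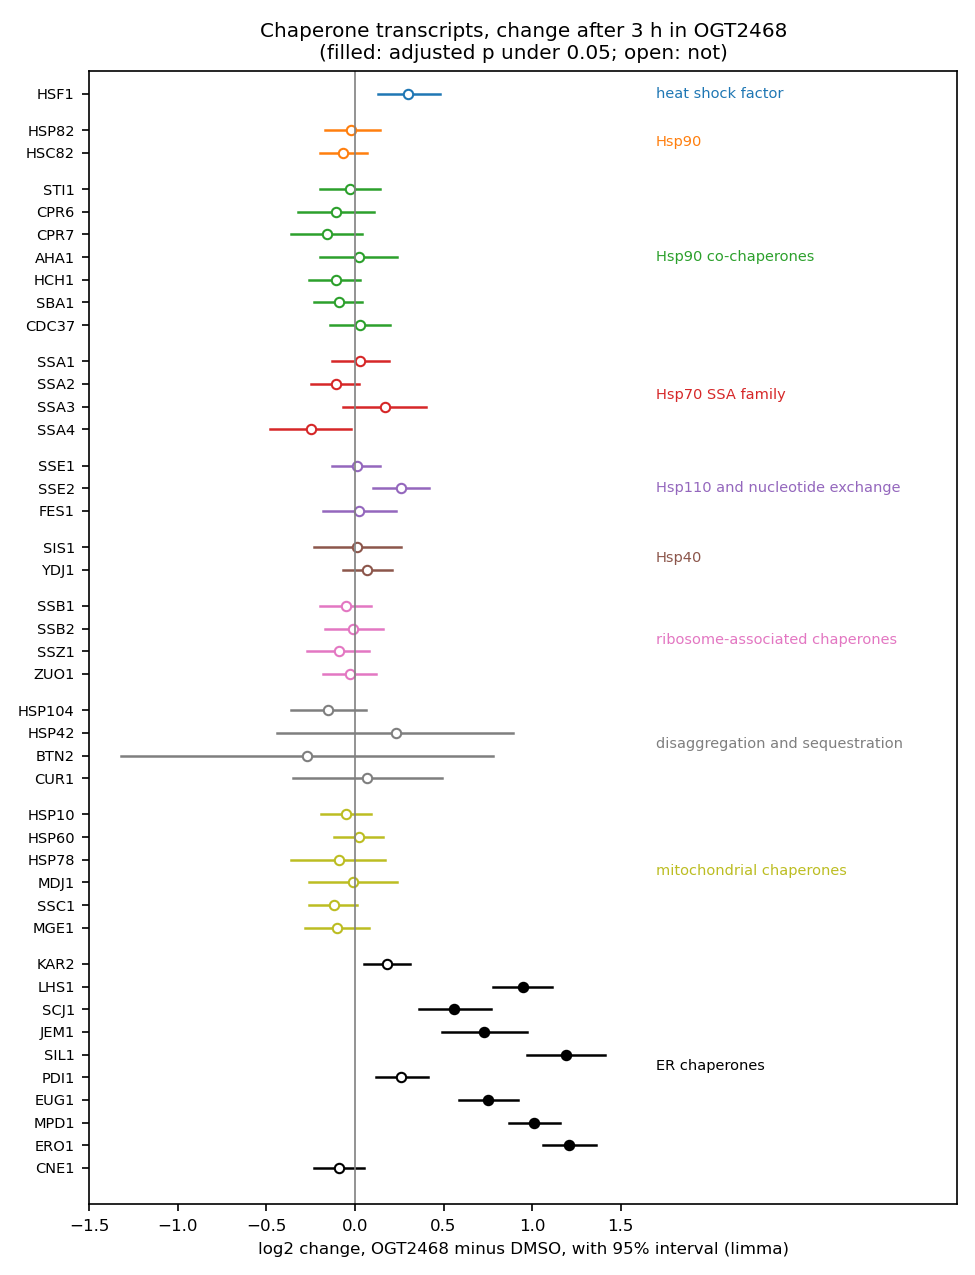
Log2 change (OGT2468 minus DMSO, horizontal axis) of the 33 members by role, with the 10 ER chaperones below them. Points are the estimates, lines the 95% intervals from limma on 3 arrays per group, filled points passed an adjusted p of 0.05. All 33 members are open points, and 7 of the 10 ER chaperones are filled.

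The groups of arrays did not overlap for 11 of the 33 members, 4 of them higher and 7 lower in OGT2468. This was so for 24.1% of all tested probe sets, which include unnamed ones, and for 1735 of 5449 named genes. It was also so for 1481 of the 4309 named genes at least as bright as the dimmest member. The count of 11 does not stand apart from these named genes. The heat shock factor gene itself was among the 4 higher members. HSF1, the transcription factor that activates most of the other members, had levels of 9.68, 9.53 and 9.71 in OGT2468, against 9.37, 9.31 and 9.33 in DMSO. Every OGT2468 culture was thus above every DMSO culture. The change was 0.30 ± 0.07 (SE, n = 3 per group), with a 95% interval from 0.13 to 0.48, and HSF1 missed the threshold when all probe sets were tested (limma adjusted p = 0.106). It passed with a pseudocount of 64 (limma adjusted p = 0.0381, where 5.34% of all probe sets passed). HSF1 also passed when only probe sets above background on at least 3 arrays were tested (limma adjusted p = 0.0292, 10.5% passing overall) and when only named S. cerevisiae probe sets were tested (limma adjusted p = 0.0308, 9.62% passing overall). With no scaling between arrays its change was 0.04, where the median change of all named genes was -0.27.

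Hsp90 is made from a heat-inducible gene, HSP82, and a constitutive one, HSC82. HSP82 had levels of 11.56, 11.56 and 11.64 in OGT2468, against 11.59, 11.56 and 11.67 in DMSO. HSC82 had 13.24, 13.23 and 13.23 in OGT2468, against 13.35, 13.26 and 13.31 in DMSO. The HSP82 groups overlapped, while every OGT2468 value of HSC82 was below every DMSO value by a small margin. The changes were -0.02 ± 0.06 for HSP82 and -0.07 ± 0.06 for HSC82 (SE, n = 3 per group). The intervals allow at most a rise of 1.1-fold for HSP82 and 1.05-fold for HSC82.

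The 7 co-chaperones of Hsp90 had changes between -0.16 and 0.03, and none passed. STI1, which links Hsp70 to Hsp90, had levels of 12.62, 12.60 and 12.74 in OGT2468, against 12.69, 12.62 and 12.75 in DMSO, which overlapped. The cyclophilins that bind Hsp90, CPR7 and CPR6, had changes of -0.16 and -0.11. HCH1, related to the ATPase activator Aha1, had a change of -0.11, and SBA1, the yeast p23, one of -0.09. For CPR7, HCH1 and SBA1 every OGT2468 array was below every DMSO array, and the adjusted p lay between 0.393 and 0.462 (limma). AHA1 (0.02) and CDC37, which brings protein kinases to Hsp90 (0.03), had groups that overlapped.

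The SSA genes encode the main cytosolic Hsp70 proteins, with SSA2 constitutive, SSA1 both constitutive and inducible, and SSA3 and SSA4 made mainly under stress. SSA1 had levels of 12.49, 12.51 and 12.62 in OGT2468, against 12.53, 12.45 and 12.54 in DMSO, and the groups overlapped. SSA2 had 13.54, 13.50 and 13.50 in OGT2468, against 13.64, 13.62 and 13.62 in DMSO, a change of -0.11 ± 0.05 (SE) with all OGT2468 arrays below all DMSO arrays. Both stress-inducible copies were separated between the groups, in opposite directions. SSA3 had 8.45, 8.47 and 8.52 in OGT2468, against 8.12, 8.41 and 8.40 in DMSO, where DMSO replicate 1 was the lowest. SSA4 had 8.14, 8.13 and 8.33 in OGT2468, against 8.40, 8.59 and 8.37 in DMSO, so the gap between the closest arrays was small. The changes were 0.17 ± 0.10 for SSA3 (limma adjusted p = 0.462) and -0.25 ± 0.09 for SSA4 (limma adjusted p = 0.265), with SE from 3 arrays per group. Without DMSO replicate 1 the change of SSA3 was 0.07. The 95% interval of SSA4, a gene whose transcript rises strongly on heat shock, ended at -0.02, on the lower side of 0.

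Hsp110 proteins and Fes1 release ADP from Hsp70. SSE1, the main Hsp110 gene, had levels of 13.27, 13.23 and 13.20 in OGT2468, against 13.20, 13.23 and 13.25 in DMSO. The groups overlapped, and the change was 0.01 ± 0.06 (SE). SSE2, its stress-inducible paralog, had 8.92, 8.95 and 8.90 in OGT2468, against 8.60, 8.75 and 8.64 in DMSO. All OGT2468 cultures were above all DMSO cultures, with a change of 0.26 ± 0.07 (SE, n = 3 per group; 95% interval 0.10 to 0.42) and a limma adjusted p of 0.126. SSE2 passed when only named probe sets were tested (limma adjusted p = 0.0412) or only those above background on at least 3 arrays (limma adjusted p = 0.0382). FES1 had a change of 0.02 and overlapped.

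Sis1 and Ydj1 are the main J-domain proteins (Hsp40) that deliver substrates to cytosolic Hsp70. SIS1 had levels of 11.71, 12.03 and 11.94 in OGT2468, against 11.82, 11.95 and 11.87 in DMSO. The OGT2468 cultures bracketed the DMSO cultures. YDJ1 had 13.08, 13.04 and 13.14 in OGT2468, against 13.00, 13.02 and 13.03 in DMSO, each OGT2468 array slightly higher, with a change of 0.07 ± 0.06 (SE; limma adjusted p = 0.614).

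Chaperones that work at the ribosome on nascent chains had changes between -0.09 and -0.01, and none passed. Ssb1 and Ssb2 are ribosome-bound Hsp70 proteins, and Ssz1 and Zuo1 form the complex that recruits them. SSB1 had levels of 13.81, 13.72 and 13.72 in OGT2468, against 13.81, 13.79 and 13.81 in DMSO, and its other probe set gave a change of -0.01 beside -0.05 for the one used. The changes of SSB2, SSZ1 and ZUO1 were -0.01, -0.09 and -0.03, and the groups overlapped for all 4 genes. By the probe set used, SSB1 was the brightest member, with a mean deposited intensity of 14026.7. Its other probe set had 10457.7, below the 11419.1 of SSB2. The brightest probe set of each array lay between 13244.7 and 15823.6. Compression of changes near the top of the scale was not tested. Among named genes with a mean intensity of 4000 or more, 19 of 647 passed the test, while 0 of the 16 members at that level did.

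Among the genes of disaggregation and sequestration, HSP42, BTN2 and CUR1 varied more between cultures of 1 group than between the groups, and none of the 4 genes passed. Hsp104 pulls proteins out of aggregates, and Hsp42 is a small heat shock protein that gathers misfolded proteins into cytosolic deposits. Btn2 and its paralog Cur1 sort misfolded proteins to deposit sites in the cell. HSP104 had levels of 10.91, 10.95 and 11.10 in OGT2468, against 11.20, 11.03 and 11.19 in DMSO, and a change of -0.15 ± 0.08 (SE; limma adjusted p = 0.45). HSP42 had 8.76, 9.57 and 9.12 in OGT2468, against 8.63, 9.37 and 8.77 in DMSO. Replicate 2 was the highest of each group, and the groups overlapped almost fully. BTN2 had 8.60, 8.29 and 7.92 in OGT2468, against 8.57, 9.35 and 7.70 in DMSO. The DMSO cultures thus held both the highest and the lowest BTN2 level, 1.66 apart. CUR1 ranged from 8.19 to 8.56 in OGT2468 and from 8.05 to 8.55 in DMSO. The changes were 0.23 ± 0.27 for HSP42, -0.27 ± 0.43 for BTN2 and 0.07 ± 0.17 for CUR1 (SE, n = 3 per group). The 95% interval of BTN2 ran from 0.4-fold to 1.72-fold and that of HSP42 from 0.736-fold to 1.86-fold. Changes within those limits were not excluded by this fit with 3 arrays per group. The limits are not the smallest changes that the fit could detect. With the replicate number as a term the SE was 0.0742 for HSP42, 0.0617 for CUR1 and 0.298 for BTN2. None passed there, with limma adjusted p of 0.288, 0.596 and 0.687. Leaving out 1 array moved the change of BTN2 to 0.14 (without DMSO replicate 2), -0.69 (without DMSO replicate 3), -0.43 (without OGT2468 replicate 1) and -0.10 (without OGT2468 replicate 3). HSP42 lay between 0.02 (without OGT2468 replicate 2) and 0.44 (without DMSO replicate 2), and CUR1 between -0.05 (without OGT2468 replicate 2) and 0.23 (without DMSO replicate 2).

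**Figure D2:**
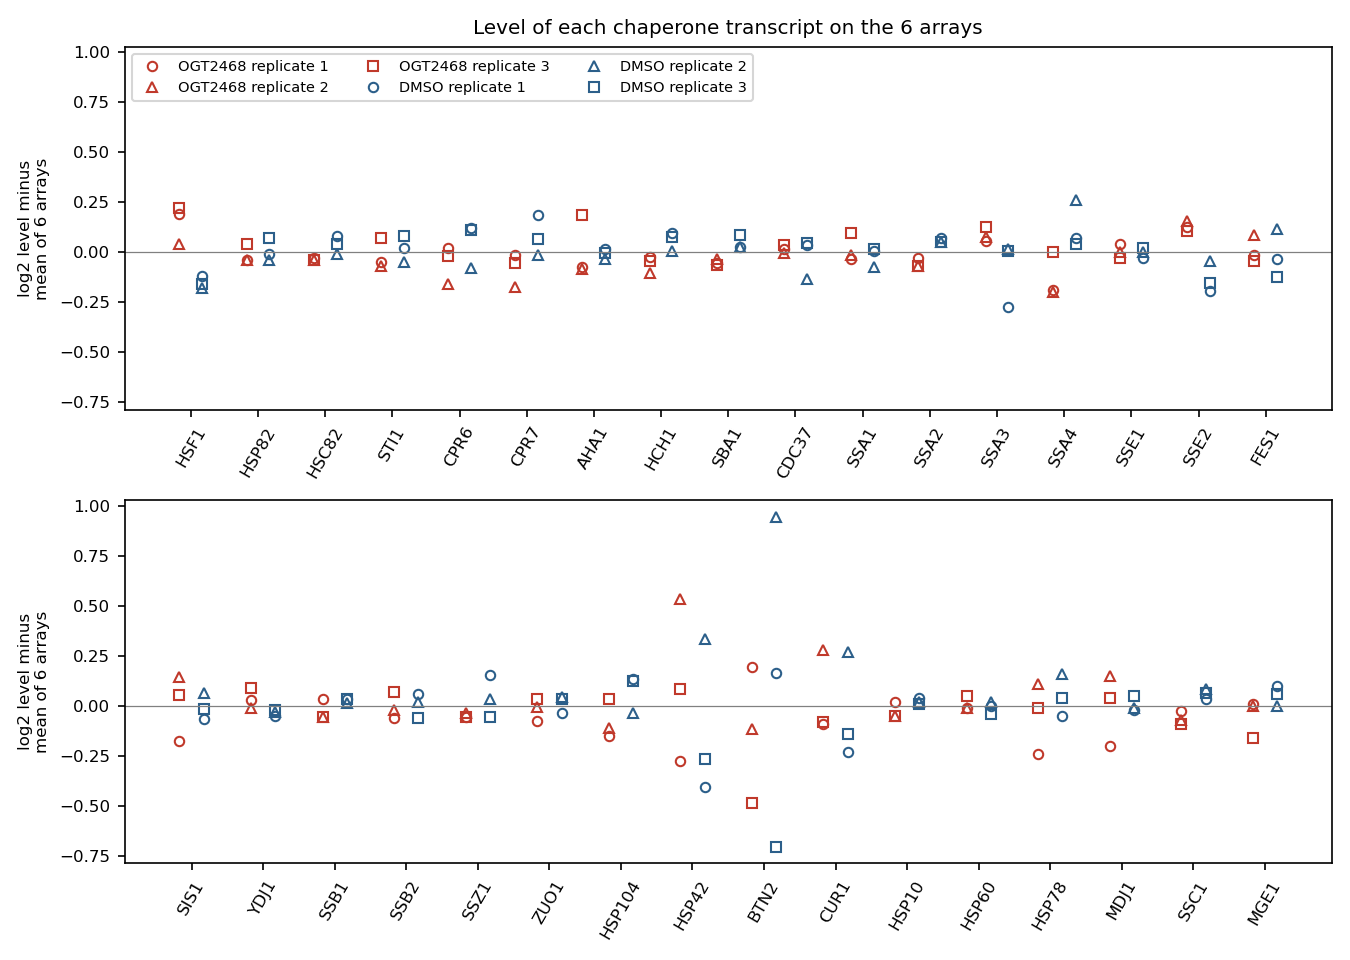
Level of each member on each array as the difference from the gene's mean over the 6 arrays (log2 units, vertical axis), OGT2468 in red on the left of each gene and DMSO in blue on the right, with circles, triangles and squares for replicates 1, 2 and 3. Most genes stay close to 0 on every array, HSF1 and SSE2 separate by group, and HSP42, BTN2 and CUR1 spread widely within both groups.

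HSP42 and BTN2 varied more between cultures than other genes of their level. The within-group SD was 0.40 for HSP42, 0.63 for BTN2 and 0.24 for CUR1, against a median of 0.07 over all 33 members and 0.09 over all named genes. Of the 1101 named genes within 0.5 of the mean level of HSP42, none had an SD as large, and their median was 0.10. Of the 744 within 0.5 of BTN2 none had an SD as large either, with a median of 0.11, while 23 of the 696 near CUR1 did. These 3 genes were singled out after their values were seen, so their rank is a description. Other members of similar level were not variable, with an SD of 0.12 for both SSA3 and SSA4. At the other end SSA2, SBA1, SSE1, HSC82, SSC1, HSP10 and HSP60 had SDs of 0.02 or 0.03, among the lowest 5% of named genes. All of these had a mean deposited intensity above 4000, where the median SD of named genes was 0.05. With upper quartile scaling the SE of the change was 0.117 for SSA2 and 0.129 for HSP60. With quantile normalization it was 0.0536 and 0.0561, so these low SDs hold for that scaling. Replicate 2 was the highest array of both groups for 6 members, SSE2, FES1, SIS1, HSP42, CUR1 and HSP78, where this held for 13.1% of all tested probe sets. Replicate 1 was highest in both groups for 8 members and replicate 3 for 5, against 13.4% and 11.4% of all tested probe sets.

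**Figure D3:**
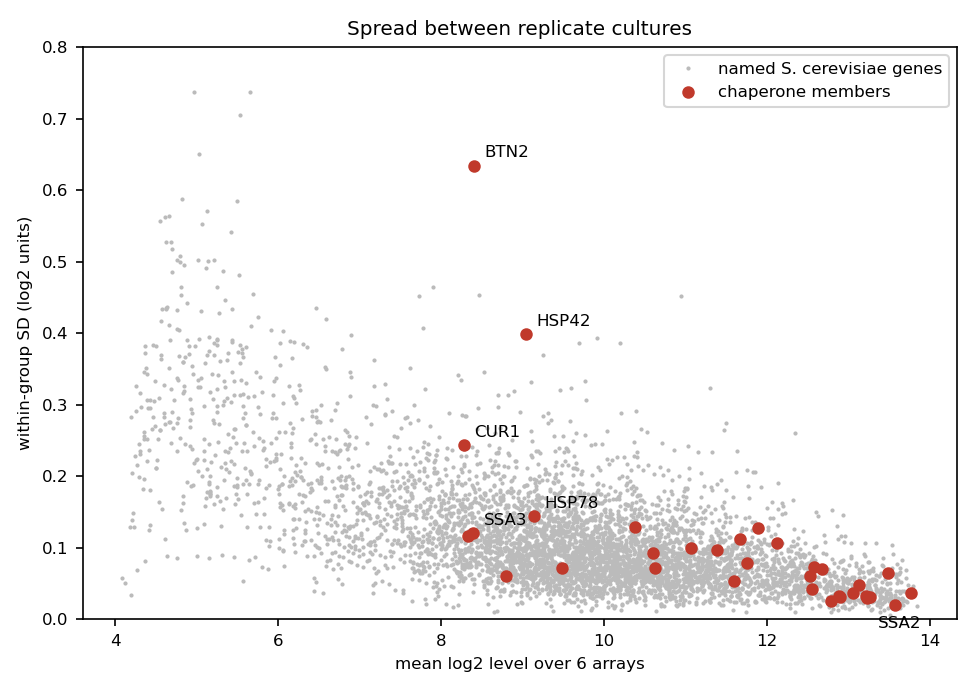
Within-group SD (log2 units, vertical axis, pooled over the OGT2468 and DMSO groups) against the mean log2 level over 6 arrays, for all named genes in grey and the 33 members in red. HSP42 (0.40) and BTN2 (0.63) lie above all named genes of similar level, while the median SD of the members is 0.07 and that of all named genes 0.09.

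The 6 mitochondrial members had changes between -0.12 and 0.02, and none passed. Their median change was -0.07, against -0.02 for the 27 cytosolic members. The difference between the compartments was not tested. Hsp60 and Hsp10 form the chaperonin of the matrix, and HSP60 had levels of 13.21, 13.21 and 13.27 in OGT2468, against 13.22, 13.24 and 13.18 in DMSO. Its change was 0.02, and that of HSP10 was -0.05. Ssc1 is the matrix Hsp70 that also pulls proteins in through the inner membrane, and SSC1 had 12.87, 12.82 and 12.80 in OGT2468, against 12.93, 12.98 and 12.96 in DMSO. It was the 1 mitochondrial member whose groups did not overlap, with a change of -0.12 ± 0.06 (SE, n = 3 per group; limma adjusted p = 0.349). Its partners, the J-domain protein gene MDJ1 and the nucleotide exchange factor gene MGE1, had changes of -0.01 and -0.10 and overlapped. HSP78, which encodes a matrix disaggregase related to Hsp104, had 8.90, 9.25 and 9.13 in OGT2468, against 9.09, 9.30 and 9.18 in DMSO, also overlapping.

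Related genes, among them inducible and constitutive copies, were compared within arrays in 9 pairs, using the difference of their log2 changes. SSE2 moved against SSE1 by 0.25 ± 0.05, SSA3 against SSA2 by 0.28 ± 0.11 and SSA1 against SSA2 by 0.15 ± 0.06 (SE, n = 3 per group). In these 3 pairs the within-array difference was higher in every OGT2468 array than in every DMSO array (exact two-sided permutation test, p = 0.1 each, the smallest this test can give with 3 against 3, and 0.3 after Benjamini-Hochberg adjustment over the 9 pairs). HSP82 against HSC82 gave 0.05 ± 0.05, SSA4 against SSA2 -0.14 ± 0.10 and SSB1 against SSB2 -0.05 ± 0.07, with groups that overlapped. The pairs CPR6 with CPR7, HCH1 with AHA1 and CUR1 with BTN2 overlapped as well, with adjusted p between 0.45 and 0.6 (exact permutation test). Without DMSO replicate 1 the value of SSA3 against SSA2 was 0.18. The size of these differences depended on the scaling. With upper quartile scaling the changes were 0.07 for SSA1, 0.17 for SSA3 and 0.05 for SSA2. SSE2 and SSE1 had 0.27 and 0.10 there. The gap was thus smaller in all 3 pairs than with quantile normalization, and nearly absent for SSA1 and SSA2. Probes of near-identical copies such as SSA1 and SSA2, SSB1 and SSB2, or HSP82 and HSC82 may bind each other's transcripts, which would make such differences smaller than they are.

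Other folding genes of the same compartments mostly had small changes too, under 0.2 in size for 39 of 44. PAM16 (-0.47) and SWA2 (0.32) went beyond the largest change of the members. In 7 lists of them 0 of 44 measured genes passed, beside 2.59% of all tested probe sets, and 5 had an unadjusted p under 0.05, beside 16.4% (limma). The median change was -0.07, with 34 changes below 0 and 10 above. Among 8 subunits of the cytosolic chaperonin CCT the changes ran from -0.22 (TCP1) to 0.05 (CCT2). For 4 of them every OGT2468 array was lower than every DMSO array. This was so for 12.1% of all tested probe sets and 892 of 5449 named genes. The 6 prefoldin genes ran from -0.14 (YKE2) to 0.06 (PFD1), and the 3 genes of the nascent polypeptide associated complex from -0.08 (EGD2) to -0.02 (BTT1). Further Hsp90 co-chaperones ran from -0.16 (SGT1) to 0.14 (TAH1) over 5 genes. Further cytosolic J-domain protein genes ran from -0.24 (JJJ2) to 0.32 over 8 genes, the highest being SWA2, the yeast auxilin that uncoats clathrin vesicles. Over 10 further genes of mitochondrial folding and import the changes ran from -0.47 to 0.14. The lowest was PAM16, a regulator of the import motor (limma adjusted p = 0.123), and the highest the matrix cyclophilin gene CPR3. Every OGT2468 array was lower than every DMSO array for 5 of these 10, beside the same 12.1% and 892 of 5449. The 4 mitochondrial AAA protease genes ran from -0.11 (PIM1) to 0.12 (AFG3).

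Further genes that Hsf1 also controls, often together with other factors, had changes in both directions. Of 6 measured, 1 rose, the small heat shock protein gene HSP12, which the stress factors Msn2 and Msn4 also activate, by 0.88 ± 0.10 (SE; limma adjusted p = 0.0118), where 1.83% of all tested probe sets were called higher. This call was lost without DMSO replicate 1, DMSO replicate 3 or OGT2468 replicate 3 (changes of 0.84 to 0.88, limma adjusted p from 0.0568 to 0.0666), with no scaling between arrays (0.60, limma adjusted p = 0.265) and with hybridization control scaling (0.61, limma adjusted p = 0.0881). HSP12 had levels of 11.20, 10.92 and 11.11 in OGT2468, against 10.10, 10.31 and 10.17 in DMSO. The other small heat shock protein gene of that list, HSP26, had 8.46, 8.46 and 8.41 in OGT2468, against 8.72, 8.71 and 8.71 in DMSO, the opposite direction, and did not pass (-0.27 ± 0.05, SE; limma adjusted p = 0.0725). The polyubiquitin gene UBI4 had a change of 0.28, MBF1 one of 0.21, RPN4, the activator of proteasome genes, one of 0.17 and CUP1-1, a metallothionein gene, one of -0.06, none past the test.

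The ER chaperones were measured on the same arrays. Of 10 measured ER genes 7 rose and none fell, beside 1.83% of all tested probe sets called higher. Their median change was 0.74, and that of the 33 members was -0.03. LHS1, the Hsp110 of the ER lumen, rose by 0.95 ± 0.07 and JEM1 and SCJ1, J-domain partners of the ER Hsp70 Kar2, by 0.73 ± 0.10 and 0.56 ± 0.08 (SE, n = 3 per group). The calls of JEM1 and SCJ1 were lost without any 1 array, so that 5 of the 10 passed in each of those fits. Their counterparts in the other compartments had changes of 0.01 (SSE1), 0.07 (YDJ1), 0.01 (SIS1) and -0.01 (MDJ1). The nucleotide exchange factor gene SIL1 rose by 1.19 in the ER, where FES1 had a change of 0.02 in the cytosol and MGE1 one of -0.10 in mitochondria. The other ER genes that rose serve the formation of disulfide bonds, ERO1 by 1.21, MPD1 by 1.01 and EUG1 by 0.75. The disulfide isomerase gene PDI1 had a change of 0.26 and CNE1, the yeast calnexin, one of -0.09, neither past the test, although the groups did not overlap for either. The Hsp70 genes were closer together: KAR2 had a change of 0.18 (limma adjusted p = 0.163), with groups that did not overlap. With upper quartile scaling the change of KAR2 was 0.31 (limma adjusted p = 0.304). The SSA genes ran from -0.25 (SSA4) to 0.17 (SSA3), with SSA1 at 0.03, and SSC1 had a change of -0.12. The difference between the lists as such was not tested. The ER result was known from these data before the lists were written, and 3 of the 10 ER genes passed when arrays were scaled on hybridization controls (0.446% of all tested probe sets called higher) and 1 when they were not scaled (0.245%). With no scaling the median change was 0.46 for the ER list and -0.25 for the members.

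**Figure D4:**
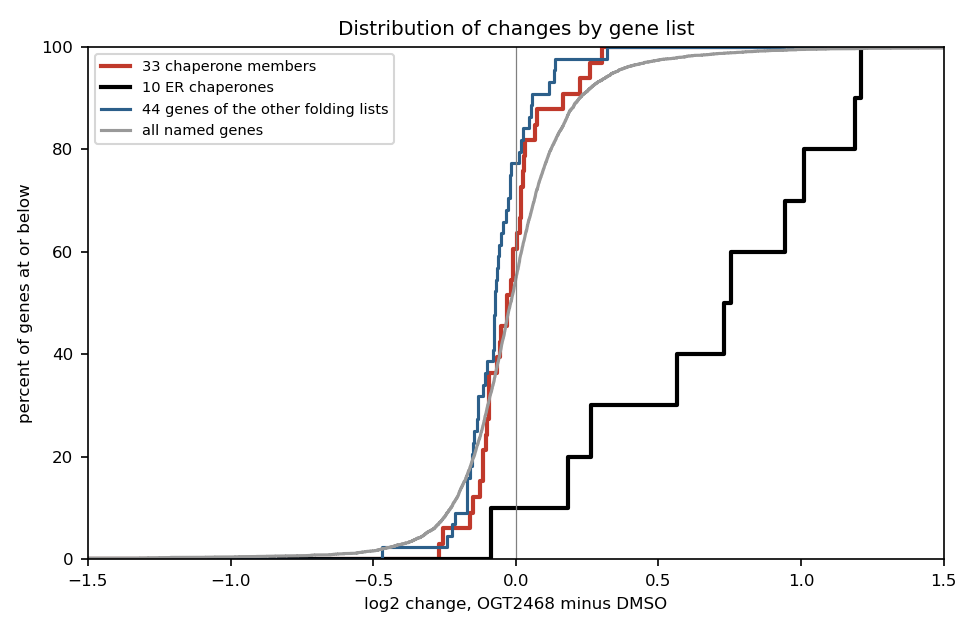
Percent of genes at or below each log2 change (OGT2468 minus DMSO) for the 33 members, the 10 ER chaperones, 44 genes of 7 other folding lists and all named genes, with the horizontal axis cut at 1.5 either way, beyond which lie 17 named genes. The members' curve rises steeply around 0 with a median of -0.03, and the ER curve lies to the right with a median of 0.74.

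Signs of changes this small depended on the scaling. With no scaling between arrays 31 of the 33 members had a change below 0 and the median of all named genes was -0.27, beside a median of -0.25 for the members. A difference in the amount of RNA per cell cannot be seen after quantile normalization.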

How the data were processed

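Per the labels' protocols, biotin-labelled total RNA of 6 yeast cultures was hybridised to Affymetrix arrays. Each probe set has a single deposited intensity for each array, and these values are linear. The submitters' processing notes name GCRMA, but its version and settings are not given in the sources used here. Medians of the deposited intensities differed between arrays, so the 8968 probe sets tested were quantile normalized, 16 was added and log2 was taken, which understates changes of dim genes. Left out were 213 control probe sets and 1747 of another species, and 3470 unnamed ones were tested without a name. Of the 8968 tested, 5557 were above background on at least 3 arrays, and most of the rest were unnamed. Shares over all tested probe sets and the adjustment thus include many without signal. A probe set was above background where it exceeded the 98th percentile of the probe sets of another species on that array.

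Probe sets were named by the platform annotation and RefSeq gene IDs (R64, for names only). OGT2468 was tested against DMSO with limma 3.58.1 in R 4.3.3, with no covariate and Benjamini-Hochberg adjustment at 0.05. The fit was tested on simulated log2 values with changes larger than that of any member. The pseudocount, smaller changes and changes of the brightest genes were not covered by that test. Every member is named. Of the other lists, CUP1-2 was not matched, and the genes named are those that passed and the extremes, plus the ER genes compared by role and all further Hsf1 targets. Members, lists and tests were chosen with earlier results of these data known. Promoter sequences were not used here. For arrays their number, 3 per group, limits the precision. The p-values measure the spread between these samples, each called biological in the design text. Alternatives covered scaling, pseudocount, filters, leaving out each array and the replicate number as a term.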

Additional observations from a re-analysis of the deposited data

How the results depend on the processing

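The count of 0 called members stayed at 0 without any 1 array (range 0 to 0), with a pseudocount of 1, with no scaling, with upper quartile scaling, with each array's median subtracted, with hybridization control scaling (chosen after seeing the data) and with the replicate block. It was 1 with a pseudocount of 64 (HSF1), and 2 both with only probe sets above background on at least 3 arrays and with only named probe sets tested (HSF1 and SSE2), all of them cytosolic, where fewer probe sets entered the adjustment in the last 2 settings. The mitochondrial count was 0 under all 15 alternatives. Over all probe sets, 164 higher and 68 lower calls became 292 and 187 with a pseudocount of 64, 352 and 229 above background, 326 and 203 among named probe sets, 101 and 41 after median subtraction, 22 and 44 with no scaling, and 40 and 77 with hybridization control scaling. Without 1 array they were 61 to 91 higher and 28 to 40 lower.

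With the replicate block the counts were 27 higher and 14 lower, HSF1 had a limma adjusted p of 0.193, 3 of 10 ER chaperones passed and HSP12 did not (limma adjusted p = 0.108). Same-numbered arrays correlated at 0.062, 0.044 and 0.009 in their deviations from the group means, so the numbers were not taken to pair the cultures. The sign of the change turned for 8 members with upper quartile scaling and 7 with median subtraction, where the median of all named genes was -0.01 and -0.02, and for 11 with no scaling and 11 with hybridization control scaling, which moved that median to -0.27 and -0.26; none of these changes passed. For the paralog pairs the exact permutation test of 3 against 3 cannot give a p below 0.1. Scaling and filters were not varied for that test, although the gaps of the separated pairs were smaller with upper quartile scaling.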
